A study of Homo sapiens with 36 samples.

Results

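Heavy polysomes of MDA-MB-231 cells, a human triple-negative breast cancer line, were compared between cells that overexpressed the isoleucine tRNA with the anticodon UAU (UAU cells) and cells with the control overexpression construct (control cells). Every library labelled as high-translating RNA of either line was taken, 3 of UAU cells and 3 of control cells, out of 36 libraries in the series. Both lines also carried a CRISPR interference construct aimed at eGFP, a reporter that is not a human gene. The high-translating fraction is given in the labels as polysomes of more than 2 ribosomes. Cells had 100 ug/mL cycloheximide for 5 min before lysis, which holds ribosomes on the mRNA. The same lines also gave total RNA and a low-translating fraction, the monosome and first polysome peaks, with 3 libraries each. A second pair of lines served as the other background, isoswitch cells (CRISPR interference against the isoleucine tRNA with the anticodon GAU, plus overexpression of the UAU tRNA) and GAUi cells (the same interference plus the control construct), also with 3 heavy-fraction libraries each. The labels give the source as a xenograft cell line and do not say whether a line is 1 clone or a pool, which promoter drives the constructs, or whether replicates A, B and C were separate cultures, so p-values speak only for the differences among these libraries.

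A tRNA carries its amino acid to the codon that matches its anticodon, and cells read the synonymous codons of 1 amino acid with tRNAs of different anticodons. For isoleucine, the UAU anticodon pairs with the codon AUA and the GAU anticodon with AUC and AUU. An mRNA that is being translated holds several ribosomes at a time, and on a sucrose gradient it sinks the deeper the more it holds, so the heavy fraction samples mRNAs by ribosome load. That load depends on how often ribosomes start, how fast they move and how long the coding sequence is. The annotation of GRCh38.p14 has 5 genes of the isoleucine tRNA with the UAU anticodon, TRI-TAT2-1 (chr2:42810536-42810628), TRI-TAT2-2 (chr6:27020346-27020439), TRI-TAT2-3 (chr6:27631421-27631514), TRI-TAT3-1 (chr6:28537590-28537683) and TRI-TAT1-1 (chr19:39412168-39412260). The libraries came from a kit that reads the ends of polyadenylated RNA, and 0 of the 26485 gene rows were isoleucine tRNA genes, so the tRNA itself was not measured.

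Library totals ran from 5192464 to 8090943 counts in UAU heavy polysomes and from 5740335 to 8974001 in control heavy polysomes, with 14832 to 15210 and 14783 to 15293 genes detected. The 10 most abundant genes took 7.72% to 7.83% of counts in UAU cells and 6.30% to 6.83% in control cells. All 8 markers of MDA-MB-231 were present, and 4 of them were called lower and 1 higher in UAU cells. Over all tested genes 15.5% were lower and 13.1% higher, and the marker counts given here are to be read beside those shares. CAV1 had 1913 to 1960 CPM (share of a library's counts, scaled with TMM factors) in UAU cells and 1888 to 2045 CPM in control cells, while VIM had 684 to 720.3 CPM in UAU cells and 819 to 1114 CPM in control cells. CD44, KRT18 and KRT8 were also lower without overlap. Of 7 markers this line should lack, ESR1 was at 0 in all 6 libraries and PGR, CDH1 and FOXA1 reached at most 0.402, 0.274 and 0.409 CPM, while EPCAM had 17.04 to 19.3 CPM in UAU cells and 20.8 to 27.2 CPM in control cells, ERBB2 17.3 to 19.1 and 14.4 to 20.1 CPM, and GATA3 6.84 to 9.17 and 7.07 to 9.66 CPM. The summed level of 10 fibroblast markers was 0.545 to 1.81 CPM in UAU cells and 1.01 to 2.36 CPM in control cells, with COL1A2, DCN, PDGFRA and POSTN at 0. Of 15 luminal epithelial markers, 10 were tested, 1 rose and 4 fell, and their sum was 410.2 to 534 CPM in UAU cells against 536 to 587 CPM in control cells. The 10 leukocyte markers summed to 13.4 to 18.1 against 18.3 to 23.7 CPM, with CD3E, MS4A1 and ITGAM at 0, and the 8 endothelial markers to 245 to 252 against 211 to 224 CPM, nearly all of it ESAM, with CDH5, VWF, CLDN5 and ERG at 0. Of 2 leukocyte markers tested, CD68 fell (log2 fold change -0.61), and of 2 endothelial markers tested 1 rose. The part of these shifts in the results was not tested.

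UAU library C stood somewhat apart from its group. The chi-square per degree of freedom between libraries of a group, 1 where they differ by counting error only, was 2.39 for UAU A and B, 8.49 for A and C and 5.05 for B and C. In control cells it was 3.19 to 3.94. Its labels are those of its group, and it stayed in every comparison. Values without it, or without another library, are given where a count moved by over 1.5 times.

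In heavy polysomes, 1570 of 11979 tested genes were higher in UAU than in control cells (13.1%) and 1862 were lower (15.5%), by the edgeR quasi-likelihood test with Benjamini-Hochberg adjustment at 0.05. Most of the changes were small: the median log2 fold change was 0.40 among genes called higher and -0.50 among genes called lower. Only 87 genes passed with 2-fold or more, 38 higher and 49 lower. Without UAU library C these counts were 1712 higher, 2097 lower and 162 at 2-fold or more. Levels are shares of each library, so a gene can rise because others fall, and fewer cells with an mRNA and less of it per cell cannot be told apart. Scaled to library totals in place of TMM factors, 1031 genes were higher and 2402 lower, 30.03% of the called genes against 45.7% with TMM, and the median over all genes moved to -0.07. Groups without overlap were common: all UAU libraries lay above all control libraries for 2171 genes and below them for 2487. Where a gene is said to have no overlap, that is to be read beside these counts and does not set it apart.

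**Figure D1:**
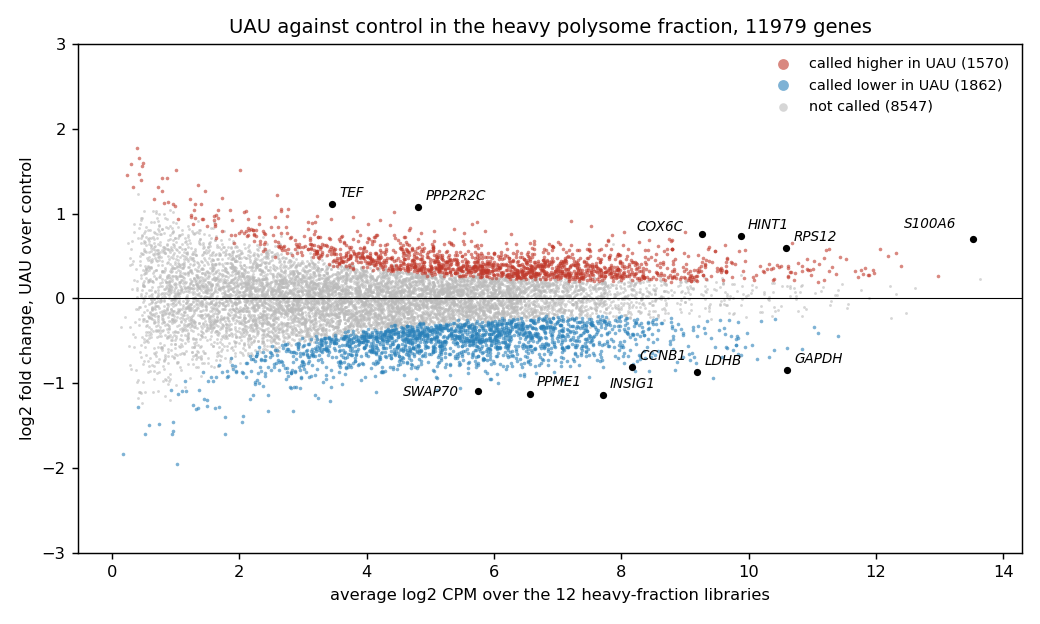
Log2 fold change of UAU over control (vertical axis) against average log2 CPM over the 12 heavy-fraction libraries (horizontal axis), 1 point per gene; red marks 1570 genes called higher in UAU, blue 1862 called lower and grey the genes not called, with 12 genes named. Called genes lie mostly within 1 log2 unit of 0, and among abundant mRNAs S100A6, COX6C, HINT1 and RPS12 lie above and GAPDH, LDHB and CCNB1 below.

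Ribosomal protein mRNAs rose for most members that passed the test. They belong to the mRNAs with a terminal oligopyrimidine tract, a run of C and T at the very start of the transcript through which mTOR signalling sets their ribosome loading. To show which members carry such a run, 40 bases around the annotated start are given for 6 of them and for EEF2, an elongation factor of the same class, 20 on each side (RefSeq, GRCh38.p14), with the longest run of C and T that touches the 10 bases on either side of the start in capitals. RPL4 and EEF2 fell and the other 5 rose in UAU heavy polysomes.
RPS12, chr6:132814549-132814588, plus strand: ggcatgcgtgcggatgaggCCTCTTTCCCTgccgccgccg
RPS27, chr1:153990742-153990781, plus strand: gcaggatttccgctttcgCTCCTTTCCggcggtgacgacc
RPL37A, chr2:216498824-216498863, plus strand: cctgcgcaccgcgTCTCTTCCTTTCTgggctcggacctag
RPL22, chr1:6199576-6199615, minus strand: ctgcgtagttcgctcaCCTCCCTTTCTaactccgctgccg
RPS29, chr14:49598691-49598730, minus strand: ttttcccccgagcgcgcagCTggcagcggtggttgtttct
RPL4, chr15:66504836-66504875, minus strand: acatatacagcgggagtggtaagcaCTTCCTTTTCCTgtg
EEF2, chr19:3985444-3985483, minus strand: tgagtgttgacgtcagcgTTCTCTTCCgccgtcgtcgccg

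A run of 7 or more C and T letters on the coding strand (other motifs and the opposite strand were not searched) touched the 10 bases on either side of the start in 22 of 25 small and 30 of 38 large ribosomal protein genes with a promoter in the table. It was found in 21.3% of all 35114 promoters, in 19.9% of 9679 tested genes, in 19.4% of genes called higher and in 20.5% of genes called lower. RPS29 rose with a run of only 2 letters at its annotated start, and RPL4 and EEF2 fell with runs of 12 and 9. Among elongation and release factors 4 of 10 promoters held a run, and among initiation factors 13 of 26. A run in this window is a description of the sequence, not a mapped transcript start.

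Of 32 small ribosomal subunit genes tested, 19 rose and 1 fell, against 13.1% and 15.5% of all genes, with a median log2 fold change of 0.25. All list counts of UAU against control in heavy polysomes below are to be read beside those shares of all genes. Of 47 large subunit genes, 23 rose and 3 fell, with a median of 0.21. RPS12, a small subunit protein, had 2123, 2044 and 2129.8 CPM in UAU cells, against 1366, 1309 and 1542 CPM in control cells (replicates in the order A, B, C here and throughout; log2 fold change 0.59, SE 0.09, edgeR adjusted p = 2.98e-05). All 3 UAU libraries lay above all 3 control libraries, and the UAU libraries were close together. RPS27 had 439.8, 457 and 402 CPM in UAU cells, against 286, 312 and 283 CPM in control cells (log2 fold change 0.57, SE 0.09, edgeR adjusted p = 2.52e-05), again without overlap. RPL37A, a large subunit protein, had 6288, 6544 and 6628 CPM in UAU cells, against 4332, 4306 and 4945 CPM in control cells (log2 fold change 0.53, SE 0.08, edgeR adjusted p = 3.84e-05). Its lowest UAU library was above its highest control library, control C.

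The members that went the other way were the large-subunit proteins RPL5 (-0.59), RPL4 (-0.38) and RPL3 (-0.27) and the small-subunit protein RPS4X (-0.44), log2 fold changes that all passed. RPL5 binds the ribosome's 5S RNA, and RPL3 and RPL4 are early-binding core proteins of the large subunit. RPL4 averaged 249 ± 47.1 CPM in UAU cells and 327 ± 33.9 CPM in control cells (SD, n = 3 each). The count of 3 large subunit members that fell was 8 without UAU library C, 1 without control library B, 1 without UAU library A and 5 with library totals, and without UAU library C 3 small subunit members fell (2 with library totals). Ribosomal protein genes have many processed pseudogenes, so part of their reads may be split in a way these counts do not show.

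The translation machinery beyond the ribosome was on balance lower. Of 34 initiation factor genes, 15 fell and 4 rose (median -0.20). Those that fell were mostly subunits of eIF3, the scaffold that joins the small subunit to the mRNA, and of eIF2 and its exchange factor eIF2B, which deliver initiator tRNA. EIF3E had 43.1, 58.1 and 47.98 CPM in UAU cells, against 96.4, 95.3 and 67.1 CPM in control cells (log2 fold change -0.80, SE 0.12, edgeR adjusted p = 4.12e-05). The UAU libraries were all below the control libraries, of which control C was the lowest. EIF3B (-0.73), EIF2S1 (-0.65) and the helicase EIF4A1 (-0.55) fell likewise. The start-codon factor EIF1 (0.26), EIF4A2 (0.39) and EIF4EBP1 (0.52), an inhibitor of cap-dependent initiation, rose. Without control library A, 2 initiation factors rose. Of 11 elongation and release factors, 6 fell and 2 rose (median -0.27). EEF2, which moves the ribosome along by a codon, fell (-0.27), as did EEF1G (-0.48), the release factors ETF1 (-0.38) and GSPT1 (-0.46), and the ribosome recycling factor ABCE1 (-0.56). EEF1A1, which brings charged tRNA to the ribosome, fell too (-0.46), but it has many near-identical pseudogene copies and its counts are uncertain. EIF5A rose (0.45).

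Genes that handle tRNA and isoleucine fell more often than they rose. Of 20 cytosolic aminoacyl-tRNA synthetases, 8 fell and 0 rose (median -0.26), 5 of them without UAU library B. DARS, the aspartyl enzyme, had 53.4, 48.5 and 58.9 CPM in UAU cells, against 104, 89.7 and 80.5 CPM in control cells (log2 fold change -0.76, SE 0.10, edgeR adjusted p = 8.85e-06). The groups did not overlap. IARS, which charges isoleucine tRNAs, had 24.1, 28.2 and 24.1 CPM in UAU cells, against 35.7, 30.6 and 25.4 CPM in control cells. Its libraries overlapped and it did not pass (log2 fold change -0.28, SE 0.13, edgeR adjusted p = 0.12). ADAT2, the catalytic subunit of the deaminase that makes inosine in tRNA anticodons, had 14.4, 11.1 and 12.5 CPM in UAU cells, against 5.300, 7.59 and 8.52 CPM in control cells. Every UAU library was above every control library (log2 fold change 0.88, SE 0.19, edgeR adjusted p = 0.00118). N6AMT2 (now EEF1AKMT1), a methyltransferase of the elongation factor eEF1A, was higher as well (log2 fold change 0.97). Of 21 genes of isoleucine uptake and branched-chain amino acid breakdown, 7 fell and 1 rose (median -0.27), with ACADSB, an enzyme of isoleucine breakdown, at -0.84 and HIBCH, of valine breakdown, at -0.81. The count of 7 was 4 without control library A and 4 without UAU library B, and 11 with library totals, and 0 rose without control library B, UAU library B or UAU library C.

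Most genes of the respiratory chain and ATP synthase that passed the test rose, and a smaller number fell. Of 38 complex I genes, 25 rose and 4 fell (median 0.31), of 24 genes of complexes II to IV 14 rose and 3 fell (median 0.27), and of 16 ATP synthase genes 11 rose and 3 fell (median 0.26). NDUFB1, an accessory subunit of complex I, had 341, 364 and 364 CPM in UAU cells, against 228, 227 and 239 CPM in control cells (log2 fold change 0.64, SE 0.08, edgeR adjusted p = 6.04e-06). COX6C, a small subunit of cytochrome c oxidase, had 913, 858 and 936 CPM in UAU cells, against 549, 527 and 543 CPM in control cells (log2 fold change 0.75, SE 0.09, edgeR adjusted p = 3.06e-06). In both genes all 3 UAU libraries lay above all 3 control libraries by a wide margin. ATP5L, a membrane subunit of ATP synthase, averaged 3242 ± 259 CPM in UAU cells and 2181 ± 192 CPM in control cells (SD, n = 3 each; log2 fold change 0.58, SE 0.09, edgeR adjusted p = 4.70e-05).

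The members that fell included the catalytic ATP synthase subunits ATP5B (-0.74) and ATP5A1 (-0.67) with ATP5F1 (-0.29) of the stalk, the core proteins UQCRC1 (-0.57) and UQCRC2 (-0.62) of complex III, SDHA (-0.54), the flavoprotein of complex II, and, among those of complex I, NDUFS1 (-0.58), NDUFA9 (-0.58) and NDUFA10 (-0.42). ATP5B had 183, 186 and 274 CPM in UAU cells, against 349, 388 and 351 CPM in control cells. UAU library C was nearest to the control libraries, and the groups did not overlap (log2 fold change -0.74, SE 0.12, edgeR adjusted p = 4.18e-05). These genes were singled out after their values were seen. The complex I count of 4 was 2 without control library B, without UAU library A and without UAU library B, each left out alone.

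Other mitochondrial groups also held members of both directions. Of 75 mitochondrial ribosomal protein genes, 31 rose and 8 fell (median 0.16), with 15 falling without UAU library C and 13 with library totals. MRPL33 (0.66) and MRPL20 (0.58) rose, and MRPS9 (-0.76) and MRPS30 (-0.61) fell. Of 24 protein import genes, 9 rose and 2 fell (median 0.17), with 5 rising without control library B or without UAU library A, and 4 falling without UAU library C. The small chaperone TIMM8A (0.68) and the pore subunit TOMM7 (0.57) rose, while the receptor TOMM70A (-0.53) and HSPA9 (-0.49), the Hsp70 of the matrix, fell. TRAP1, the mitochondrial Hsp90, averaged 20.05 ± 2.16 CPM in UAU cells and 42.8 ± 4.38 CPM in control cells (SD, n = 3 each; log2 fold change -1.08, SE 0.12, edgeR adjusted p = 1.60e-06). Its annotated span overlaps DNASE1, which also fell (-0.85), and the strand setting of the counting is not given in the sources used here.

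**Figure D2:**
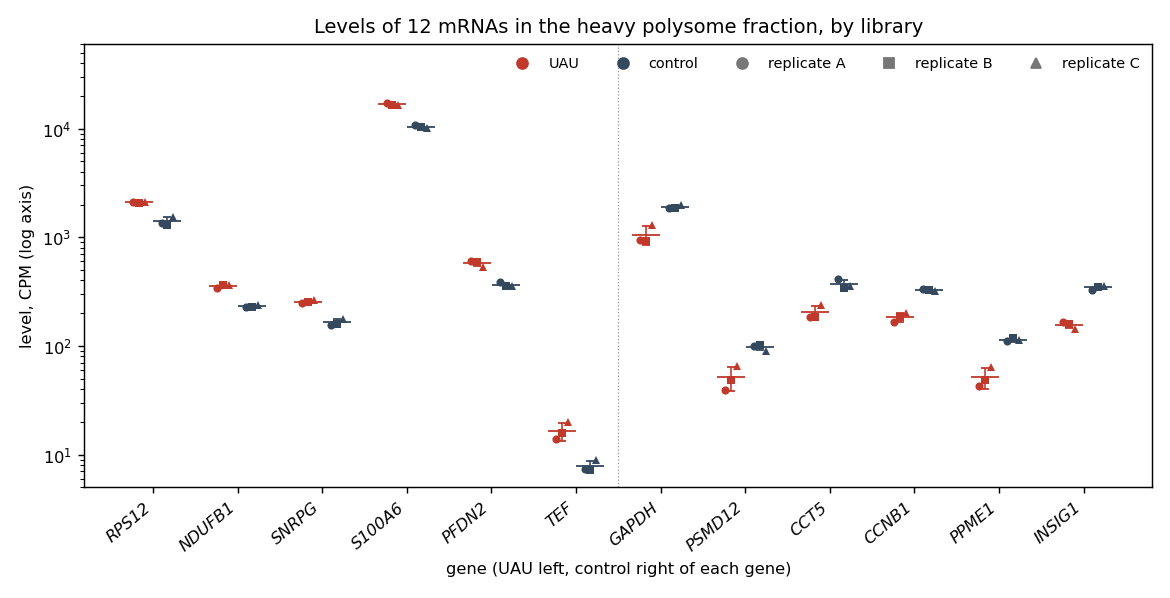
Levels of 12 mRNAs in the heavy fraction in CPM (log axis), with UAU libraries (red) left and control libraries (dark) right for each gene, symbols marking replicates A, B and C and bars the mean ± SD of 3 libraries. The UAU libraries of RPS12, NDUFB1, SNRPG, S100A6, PFDN2 and TEF all lie above control, and those of GAPDH, PSMD12, CCT5, CCNB1, PPME1 and INSIG1 all lie below, with UAU C nearest to control for PFDN2, GAPDH, PSMD12, CCT5, CCNB1 and PPME1, and also for S100A6.

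Sm and LSm proteins, which form rings on spliceosomal and other small RNAs, had 15 of 19 tested members higher and 2 lower, with a median log2 fold change of 0.37. SNRPG, a core Sm protein, had 246, 255 and 263 CPM in UAU cells, against 155, 160.0 and 178 CPM in control cells (log2 fold change 0.65, SE 0.09, edgeR adjusted p = 1.67e-05). Every UAU library exceeded every control library. SNRPF (0.51), LSM6 (0.49) and LSM2 (0.48) rose too. The 2 members that fell, SNRPA (-0.68) and SNRPB2 (-0.44), are RNA-binding proteins of the U1 and U2 particles and not part of the rings, as is SNRPA1, which rose (0.33). Of 10 S100 genes, small calcium-binding proteins, 7 rose and 0 fell (median 0.55). S100A6, among the most abundant mRNAs of these libraries, had 17224, 16524 and 16421 CPM in UAU cells, against 10689, 10276 and 10085 CPM in control cells (log2 fold change 0.70, SE 0.08, edgeR adjusted p = 1.60e-06). S100A2 (0.68), S100A10 (0.63) and S100A4 (0.58), which is linked to metastasis, rose as well, each with no overlap between the libraries. Of 17 histone genes read here, 8 rose and 2 fell (median 0.36). The variant H2AFZ (0.48) and the replication-dependent HIST1H4C (0.58) were among those that rose. The count of 2 was 0 without control library B, UAU library A or UAU library B, and 1 without control library C. Replication-dependent histone mRNAs mostly lack a poly(A) tail, so these libraries see only the part that has one.

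Most glycolytic enzymes fell. Of 17 tested, 11 fell and 0 rose, and the median log2 fold change was -0.57. GAPDH had 934, 921 and 1289.6 CPM in UAU cells, against 1851, 1870.0 and 1993 CPM in control cells. UAU libraries A and B were near to each other and UAU C was higher, still below every control library (log2 fold change -0.85, SE 0.10, edgeR adjusted p = 1.87e-06). LDHB, a lactate dehydrogenase subunit, had 335, 343 and 468 CPM in UAU cells, against 713, 695 and 707 CPM in control cells, with the same order of libraries (log2 fold change -0.87, SE 0.10, edgeR adjusted p = 1.28e-06). ENO1 (-0.70), PKM (-0.70) and PFKL (-0.65) fell too, and TPI1 was at -0.01 without passing (adjusted p = 0.936). MDH1, the cytosolic malate dehydrogenase, fell by a similar amount (-0.90). GAPDH has many processed pseudogenes, so part of its reads may be assigned elsewhere. Of 19 hypoxia targets, 5 fell and 2 rose (median -0.28), against 15.5% and 13.1% of all genes. The glucose transporter SLC2A1 had 39.1, 41.4 and 51.8 CPM in UAU cells, against 91.2, 78.9 and 77.8 CPM in control cells (log2 fold change -0.89, SE 0.11, edgeR adjusted p = 2.41e-06), while BNIP3, a mitophagy receptor, rose (0.40). Without UAU library A, 3 of these targets fell, and with library totals 8 did; without control library C, 1 rose.

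The cytosolic chaperonin CCT and its partner prefoldin changed in opposite directions. All 8 CCT subunits, which together fold actin and tubulin, fell, and 5 of the 6 subunits of prefoldin, which hands those proteins to CCT, rose. CCT5 had 186, 186 and 238 CPM in UAU cells, against 414, 343 and 354 CPM in control cells (log2 fold change -0.85, SE 0.09, edgeR adjusted p = 1.20e-06), with no UAU library as high as any control library. PFDN2 had 606, 587 and 537 CPM in UAU cells, against 384, 358 and 355 CPM in control cells (log2 fold change 0.67, SE 0.08, edgeR adjusted p = 3.75e-06), with no UAU library as low as any control library. PFDN6 was at 0.27 and did not pass (adjusted p = 0.0592). Without control library B, 3 prefoldins rose. TBCA (0.41), a tubulin-folding cofactor, rose, and TUBB (-0.61) and TUBB4B (-0.67) fell. Of 14 tubulin genes 5 fell and 3 rose, with 10 falling without UAU library C and 3 without control library B, control library C, UAU library A or UAU library B. TUBB2B rose (1.21) at a low level, 9.39 ± 1.19 CPM in UAU cells and 4.03 ± 0.681 CPM in control cells (SD, n = 3 each).

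Most subunits of the regulatory cap of the proteasome fell. Of 19 genes of the 19S cap, which unfolds and feeds in substrates, 16 fell and 1 rose (median -0.50). PSMD12 had 39.6, 48.9 and 65.3 CPM in UAU cells, against 99.3, 103 and 90.3 CPM in control cells (log2 fold change -0.91, SE 0.13, edgeR adjusted p = 1.03e-05). UAU C was the highest of its group and still below all control libraries. PSMC1 (-0.85), an ATPase of the ring, and PSMD6 (-0.68) fell likewise, and the small cap protein SHFM1 rose (0.57). Of 15 genes of the 20S core, 3 fell and 1 rose (median -0.17), against 15.5% and 13.1% of all genes. The one that rose was POMP (0.43), the assembly factor of the core. Without UAU library C, 8 core genes fell, as they did with library totals, and 5 fell without control library C.

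Heat shock and endoplasmic reticulum (ER) chaperones were lower. Of 18 cytosolic heat shock genes 10 fell and 1 rose (median -0.32), 6 falling without UAU library B and 2 rising without control library A. HSP90AA1 (-0.67) and its co-chaperone STIP1 (-0.75) fell, as did the mitochondrial chaperonin HSPD1 (-0.50), while HSPE1, the small lid of that chaperonin, rose (0.43). Of 23 ER chaperone genes 12 fell and 2 rose (median -0.34). Calreticulin, CALR, a lectin that helps glycoproteins fold, had 266, 276 and 425 CPM in UAU cells, against 595, 559 and 605 CPM in control cells. UAU C lay well above UAU A and B, and below every control library (log2 fold change -0.85, SE 0.12, edgeR adjusted p = 1.78e-05). XBP1, a transcription factor of the unfolded protein response, rose (0.36). The count of 2 that rose was 0 without UAU library A and with library totals, and 1 without control library A. The translocon and signal peptidase list split, with 14 of 30 higher and 8 lower. SEC61G (0.75) and SEC61B (0.48), the small subunits of the channel, rose, and RPN2 of the sugar-transfer complex and SRP68 (-0.75) of the signal recognition particle fell. RPN2 had 82.1, 74.6 and 88.1 CPM in UAU cells, against 158, 149 and 143 CPM in control cells (log2 fold change -0.87, SE 0.08, edgeR adjusted p = 1.74e-07), with UAU C nearest to control. Without control library B, 9 genes of this list rose. Of 23 lysosomal genes 12 fell and 2 rose (median -0.39), 7 falling without UAU library A. LIPA, the lysosomal acid lipase, averaged 5.09 ± 0.332 CPM in UAU cells and 10.4 ± 1.64 CPM in control cells (SD, n = 3 each; log2 fold change -1.04, SE 0.20, edgeR adjusted p = 0.000352).

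**Figure D3:**
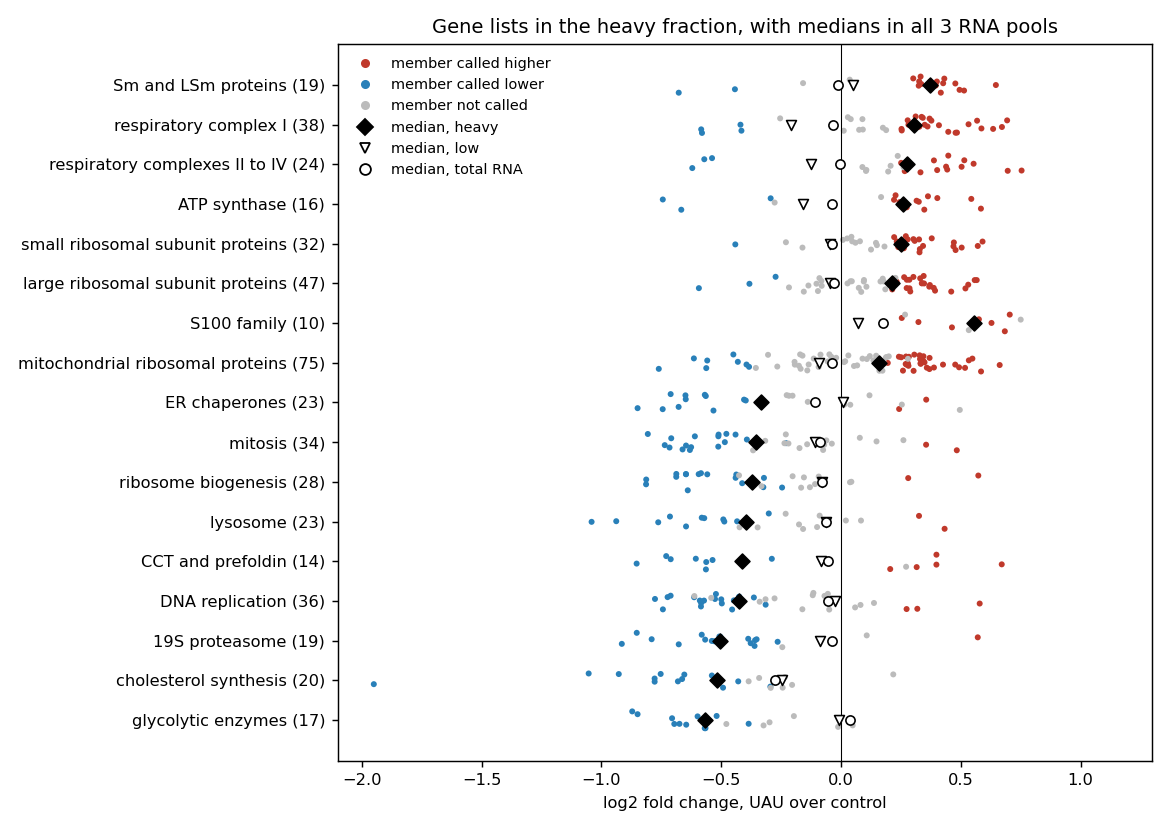
Log2 fold change of UAU over control in the heavy fraction for each tested member of 17 gene lists (horizontal axis; number tested in brackets), red where called higher, blue where called lower, grey where not called, with the list median in the heavy fraction (filled diamond), the low fraction (triangle) and total RNA (open circle). Heavy-fraction medians run from 0.55 for the S100 family to -0.57 for glycolytic enzymes, and total RNA medians from 0.17 for the S100 family to -0.27 for cholesterol synthesis.

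Cell cycle mRNAs were lower in UAU heavy polysomes. Of 34 mitosis genes 18 fell and 2 rose (median -0.35), and of 36 DNA replication genes 19 fell and 3 rose (median -0.42). In total RNA 0 of the mitosis genes were called and in the low fraction 4 were lower, with list medians of -0.09 and -0.11. CCNB1, cyclin B1, had 167, 183 and 202 CPM in UAU cells, against 333, 324 and 317 CPM in control cells. The 3 control libraries differed little and all UAU libraries lay below them (log2 fold change -0.81, SE 0.08, edgeR adjusted p = 3.16e-07). The anaphase activator CDC20 (-0.74), the kinases PLK1 (-0.66) and AURKA (-0.63) and the spindle protein NUSAP1 (-0.72) fell too. The small proteins CKS2 (0.48), a partner of CDK1, and UBE2C (0.36), a ubiquitin-conjugating enzyme of mitotic exit, rose. In replication, CDC6 had 46.1, 43.1 and 52.5 CPM in UAU cells, against 89.2, 70.5 and 79.9 CPM in control cells (log2 fold change -0.74, SE 0.10, edgeR adjusted p = 8.69e-06), and the helicase subunits MCM3, MCM4, MCM5, MCM6 and MCM7 fell with log2 fold changes between -0.78 and -0.52. The ribonucleotide reductase subunit RRM2 (-0.71) and the sliding clamp PCNA (-0.57) fell, while the polymerase subunits POLE (0.58) and POLD2 (0.27) and GINS2 (0.32) rose. Without control library B, 1 replication gene rose. Ribosome biogenesis factors fell for 16 of 28 and rose for 2 (median -0.37). The pseudouridine synthase DKC1 (-0.69) and nucleolin, NCL (-0.65), fell, and NOP10 (0.57) and NHP2 (0.28), small partners of DKC1 in one particle, rose. The count of 2 was 1 with library totals and without control library A, control library B, UAU library A or UAU library B. Of 24 nuclear transport genes 9 fell, such as the importin KPNA6 (-0.79), and 1 rose (median -0.24), with 0 rising without control library A or UAU library A and 2 without UAU library C.

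Sterol and lipid synthesis genes fell in heavy polysomes, and several of them were lower in total RNA too. Of 20 cholesterol synthesis genes 13 fell and 0 rose (median -0.52), of 11 genes of sterol sensing and uptake 7 fell and 1 rose (median -0.39), and of 15 fatty acid synthesis genes 7 fell and 0 rose (median -0.28). Without control library C, 1 cholesterol synthesis gene rose, and the 1 sterol sensing gene that rose was not called without control library A, without UAU library B or with library totals, while 2 rose without UAU library C. These are targets of the SREBP transcription factors, which are held back when membrane cholesterol is ample. INSIG1, the ER protein that holds them back, had 164, 159 and 144 CPM in UAU cells, against 330.1, 349 and 358 CPM in control cells (log2 fold change -1.14, SE 0.08, edgeR adjusted p = 3.81e-10). Its UAU libraries lay far below every control library. IDI1, an isomerase of the mevalonate pathway, had 27.2, 27.97 and 28.4 CPM in UAU cells, against 61.7, 62.8 and 49.5 CPM in control cells (log2 fold change -1.05, SE 0.12, edgeR adjusted p = 1.60e-06). SCD, the stearoyl-CoA desaturase, averaged 106 ± 12.2 CPM in UAU cells and 209 ± 2.09 CPM in control cells (SD, n = 3 each; log2 fold change -0.96, SE 0.08, edgeR adjusted p = 5.58e-08). HSD17B7, an enzyme of cholesterol synthesis, fell too, at a low level (0.723 ± 0.152 CPM in UAU cells and 2.88 ± 0.391 CPM in control cells; SD, n = 3 each). In total RNA the log2 fold changes were -1.22 for INSIG1, -0.64 for IDI1 and -0.84 for SCD, all called, and the median of the cholesterol synthesis list was -0.27. None of these 3 genes was called in the high-to-total ratio, whose log2 differences were 0.11, -0.38 and -0.09. In that ratio 2 of the 20 cholesterol synthesis genes were lower, CYP51A1 (-0.51) and FDFT1 (-0.56). FASN was at -0.19 in heavy polysomes and did not pass (adjusted p = 0.213), and at -0.82 in the low fraction, where it did.

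Across all genes, the mRNAs with the highest log2 fold changes among called genes whose libraries did not overlap and whose log2 CPM averaged 3 or more were TEF, PPP2R2C and CYSTM1. TEF, a bZIP transcription factor, had 13.96, 15.7 and 20.04 CPM in UAU cells, against 7.44, 7.17 and 8.88 CPM in control cells (log2 fold change 1.11, SE 0.16, edgeR adjusted p = 2.17e-05). PPP2R2C, a regulatory subunit of the phosphatase PP2A, had 42.8, 41.2 and 34.6 CPM in UAU cells, against 18.6, 21.5 and 16.3 CPM in control cells (log2 fold change 1.07, SE 0.13, edgeR adjusted p = 2.89e-06). In each the UAU libraries stood well above the control libraries. Also among the 12 highest were G0S2 (0.92), an inhibitor of the triglyceride lipase ATGL, LRFN4 (0.92), FAM131A (0.91), the selenoprotein SELM (0.90), CRIP2 (0.94) and IL15RA (0.90). NDUFB2-AS1 (0.96) overlaps NDUFB2, which rose too (0.57), and reads of the pair cannot be told apart without the strand. FAM131A likewise overlaps CLCN2 (0.65).

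The 12 lowest held, beside INSIG1 and IDI1, mRNAs of various roles. PPME1, the methylesterase that acts on PP2A, had 42.4, 48.5 and 64.5 CPM in UAU cells, against 111, 119 and 113 CPM in control cells. UAU C was the highest of its group and far below control (log2 fold change -1.12, SE 0.12, edgeR adjusted p = 6.81e-07). SWAP70, an actin-binding signalling protein, had 30.7, 31.6 and 35.99 CPM in UAU cells, against 71.5, 69.1 and 70.3 CPM in control cells (log2 fold change -1.09, SE 0.10, edgeR adjusted p = 1.42e-07), with both groups narrow and apart. GALM (-1.21), the caveolar coat protein SDPR (-1.17), the macrophage growth factor CSF1 (-1.11), and the transcription factors ATOH8 (-1.04) and NFIL3 (-1.01) fell as well. The sorting nexin SNX2 fell too, averaging 38.9 ± 5.01 CPM in UAU cells and 78.7 ± 3.35 CPM in control cells (SD, n = 3 each). TGFB2-AS1 (-1.14) overlaps TGFB2, which also fell (-0.77), so its reads are uncertain. LRFN4, IDI1, MDH1, S100A4 and RPS29 overlap other annotated genes as well, none of which was called.

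Other lists held members of both directions or few called members. Over all genes 13.1% were higher and 15.5% lower, and the counts of several of these lists come near those shares. Of 38 actin cytoskeleton genes 15 rose and 8 fell (14 without UAU library C and 5 without UAU library A), with the actin-binding thymosin TMSB4X at 0.79 and the bundling protein FSCN1 at -0.90. TMSB4X averaged 771 ± 78.8 CPM in UAU cells and 450.1 ± 46.8 CPM in control cells (SD, n = 3 each; log2 fold change 0.79, SE 0.14, edgeR adjusted p = 0.000195). Of 21 invasion and metastasis genes 4 rose and 4 fell, with S100A4 among those that rose and CD44 (-0.69) and VIM (-0.47) among those that fell. Interferon response genes rose for 2 and fell for 7 of 28, with IFIT1 at -1.39 at a low level (2.400 ± 0.526 CPM in UAU cells and 6.48 ± 1.55 CPM in control cells; SD, n = 3 each), and their median of 0.01 turned to -0.06 with library totals and to between -0.07 and -0.01 without control library A, control library B, UAU library B or UAU library C. Without UAU library A, and with library totals, 1 of them rose. Of 387 zinc finger genes named ZNF, 15 rose and 14 fell, fewer than the 13.1% and 15.5% of all genes, and their median of 0.04 turned to -0.04 with library totals. All 566 genes so named summed to only 5183 to 5384 CPM in UAU cells, and depth limits the calls of genes of low level. The count of 15 was 8 without control library A, 9 without control library B, 7 without UAU library A and 6 with library totals, and the count of 14 was 9 without control library A. Genes of the ATF4 response (3 rose and 3 fell of 21) and peroxiredoxins and thioredoxins (5 rose and 2 fell of 18) had medians of 0.01 and 0.05, which turned to -0.05 and -0.02 with library totals. For the ATF4 genes, 5 rose and 6 fell without UAU library C, 1 rose and 1 fell without UAU library B, 1 rose without control library C, and 1 rose and 6 fell with library totals. Without UAU library C, and with library totals, 4 peroxiredoxins and thioredoxins fell. Of 13 p53 targets 0 rose and 2 fell, GDF15 (-0.61) and PLK2 (-0.40), a count that was 0 without control library A and 1 without control library C, UAU library A or UAU library B. Of 21 immediate early genes 6 fell (2 without UAU library B) and 2 rose (1 without control library A, control library B or UAU library A), and of 28 extracellular matrix and integrin genes 5 fell (2 without control library A, 3 without control library B) and 2 rose (1 without control library B, without UAU library C or with library totals). Of 25 long non-coding RNAs 8 rose and 2 fell, with the snoRNA hosts GAS5 (0.63) and SNHG6 (0.64) among the highest. The count of 8 was 5 without control library A, UAU library A or UAU library B, and 5 with library totals, and the count of 2 was 1 without control library A, control library B, UAU library A or UAU library C. Their median was 0.13, and -0.00 without UAU library A.

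The same contrast gave 113 calls in total RNA and 86 in the low fraction. In total RNA, 43 of 12357 genes were higher in UAU cells (0.348%) and 70 were lower (0.566%), and in the low fraction 41 of 12445 were higher (0.329%) and 45 lower (0.362%). These counts depended on the fit: with only the 6 compared libraries fitted, total RNA gave 916 calls and the low fraction 0 (1163 genes at an unadjusted p under 0.05). DESeq2, fitted as in the main comparison, called 187 genes in total RNA and 183 in the low fraction. Only UAU and control libraries were left out here. Leaving out 1 of these 6 gave 25 to 43 calls in total RNA, whichever it was. In the low fraction it gave 209 without control library B, 74 without UAU library A, and 6 to 40 without any other of them. Of 38 complex I genes 0 were called in total RNA and 1 in the low fraction, and of 17 glycolytic genes 0 in either. Other lists did hold calls there. Sterol sensing and uptake had 3 of 11 genes lower in each, and fatty acid synthesis 2 of 15. Cholesterol synthesis had 4 of 20 lower in total RNA and 1 of 19 in the low fraction. Hypoxia targets had 3 of 19 lower and 1 higher in total RNA. Mitosis had 4 of 34 lower in the low fraction and 0 called in total RNA. The difference between the fraction and total RNA was tested itself, as the high-to-total ratio of UAU cells minus that of control cells. In it, 448 of 12540 genes were higher (3.57%) and 470 lower (3.75%), 918 in all. That count was 1329 without UAU heavy library C, 457 without UAU heavy library A, 507 without control heavy library A, 569 without UAU heavy library B, and 574, 601 and 492 without control total library A, control total library B and UAU total library C. Of the 3432 genes called in heavy polysomes, 857 were also called in the ratio, each in the same direction; the heavy-fraction libraries are shared by both comparisons. Small ribosomal subunit genes were higher in the ratio for 14 of 32 and lower for 0, complex I for 12 of 38 higher and 1 lower, and Sm and LSm for 8 of 19 higher and 1 lower. Glycolytic genes were lower for 8 of 17, 19S cap genes for 6 of 19 and mitosis genes for 6 of 34, with 0, 1 and 0 higher.

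The genes with the highest ratios were NDUFB2-AS1 (log2 difference 1.74), GDF9 (1.36), PET100 (1.20), STK36 (1.18), ADAT2 (1.05) and DYNLL2 (1.03). PET100, an assembly factor of cytochrome c oxidase, had 235, 259 and 313 CPM in UAU cells, against 139, 153 and 160.1 CPM in control cells in the heavy fraction. In total RNA it averaged 65.8 ± 4.97 CPM in UAU cells and 83.4 ± 8.15 CPM in control cells (SD, n = 3 each), so its share was higher in heavy polysomes and not in total RNA. GDF9 overlaps UQCRQ and PET100 lies within STXBP2, so their reads may be shared. The lowest ratios were those of SAMHD1 (-1.34), a nucleotide hydrolase, TRAP1 (-1.18), DGCR14 (-1.16), B3GAT2 (-1.14), SCFD2 (-1.13) and PLIN4 (-1.09). Apart from TRAP1 these were mRNAs of low level, B3GAT2 the highest with 7.24 ± 1.35 CPM in UAU cells and 11.2 ± 1.82 CPM in control cells (SD, n = 3 each). DGCR14 and SCFD2 apart, these genes overlap another that also fell: SAMHD1 with TLDC2 (-1.60), B3GAT2 with SMAP1 (-0.60) and PLIN4 with HDGFRP2 (-0.71).

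Some genes moved in total RNA as well as in heavy polysomes. PPME1 was lower in total RNA (log2 fold change -0.42, edgeR adjusted p = 0.0162) and its ratio was lower too (-0.68, adjusted p = 0.00791). CSF1 (-0.67) and ATOH8 (-1.49) were lower and PPP2R2C (0.76) was higher in total RNA, all called, and none of these 3 was called in the ratio. XBP1 was called higher in total RNA (0.57), in the low fraction (0.48) and in heavy polysomes (0.36), and DDIT4, an inhibitor of mTOR signalling that stress induces, lower in all 3 (-0.85, -0.56 and -0.59). RPS12 was lower in total RNA (-0.29, adjusted p = 0.0488) while it rose in heavy polysomes, and its ratio was higher (0.90, adjusted p = 2.75e-05). PTGES, the prostaglandin E synthase, was lower in total RNA (log2 fold change -1.10, edgeR adjusted p = 0.00034) and had 104, 88.5 and 137 CPM in UAU cells, against 137, 122 and 151 CPM in control cells in heavy polysomes, where the libraries overlapped and it did not pass (adjusted p = 0.0614). Its high-to-total ratio was higher in UAU cells (0.83, adjusted p = 0.00901).

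The same overexpression was compared in the other background, in isoswitch against GAUi heavy polysomes, which share no library with UAU or control cells. Differences between lines cannot be told apart here from an effect of the tRNA, which was not measured. In isoswitch cells, 788 of 11979 genes were higher (6.58%) and 1109 lower (9.26%). The genes that rose in UAU cells mostly went the other way: of those 1570, 8 were higher and 598 lower in isoswitch, with a median log2 fold change of -0.24. Of the 1862 that fell, 557 were higher and 12 lower, with a median of 0.24. The difference between both effects, isoswitch minus GAUi less UAU minus control, was called for 4276 genes (35.7%), among them 1320 of the 1570 and 1633 of the 1862. The difference holds the UAU effect itself with a minus sign, and those genes were chosen by that effect, so its opposite sign in them is largely set by the choice. Over all tested genes the effects in both backgrounds had a Spearman correlation of -0.49 and a Pearson correlation of -0.43, a description over genes of 12 libraries with a common scaling. The count of 1897 called in isoswitch was 994 without GAUi library A, 1158 without GAUi library C and 772 without isoswitch library A.

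RPS29, a small subunit protein, had 3365, 3952 and 3278 CPM in isoswitch cells, against 5967, 5426 and 6085 CPM in GAUi cells (log2 fold change -0.73). In the first background it had 5917, 5615 and 5956 CPM in UAU cells, against 4069, 4103 and 4267 CPM in control cells (0.50). The difference of -1.24 passed (edgeR adjusted p = 6.11e-08). MDH1 had 141, 120.1 and 117 CPM in isoswitch cells, against 82.5, 90.1 and 78.3 CPM in GAUi cells (0.58), and 48.5, 48.1 and 53.02 CPM in UAU cells, against 90.8, 105 and 85.6 CPM in control cells (-0.90), with a difference of 1.48 (edgeR adjusted p = 8.85e-08). In neither gene did the groups overlap in either background. HINT1, a small nucleotide hydrolase, had log2 fold changes of -0.62 in isoswitch over GAUi and 0.73 in UAU over control, and SNRPG of -0.82 and 0.65. ANXA2P3 (0.78 and -0.90) is a pseudogene of ANXA2 (0.49 and -0.65) and may share its reads. By list, isoswitch cells had 0 of 32 small ribosomal subunit genes higher and 22 lower, 0 of 38 complex I genes higher and 15 lower, 11 of 17 glycolytic genes higher and 0 lower, and 12 of 34 mitosis genes higher and 1 lower.

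Of the 12 highest and 12 lowest genes above, INSIG1, ATOH8 and CRIP2 were called in the same direction in both backgrounds. INSIG1 had 151, 148 and 154 CPM in isoswitch cells, against 222, 207 and 208 CPM in GAUi cells (log2 fold change -0.51, SE 0.08, edgeR adjusted p = 0.000133), lower in every isoswitch library, though by less than in UAU cells (difference 0.63, adjusted p = 7.86e-05). ATOH8 had 7.04, 8.398 and 8.996 CPM in isoswitch cells, against 18.1, 15.02 and 19.2 CPM in GAUi cells (log2 fold change -1.11, SE 0.16, edgeR adjusted p = 4.70e-05), and its difference between backgrounds was -0.07 (adjusted p = 0.85). CRIP2, a LIM-domain protein, was higher in both, by 0.74 in isoswitch over GAUi and 0.94 in UAU over control (difference -0.19, adjusted p = 0.617). A p that misses the threshold does not show that the effects are equal. SCD (-0.11) and IDI1 (0.08) were not called in isoswitch. Of 20 cholesterol synthesis genes 0 were higher and 1 was lower there, and of 11 genes of sterol sensing and uptake 0 were higher and 4 lower.

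**Figure D4:**
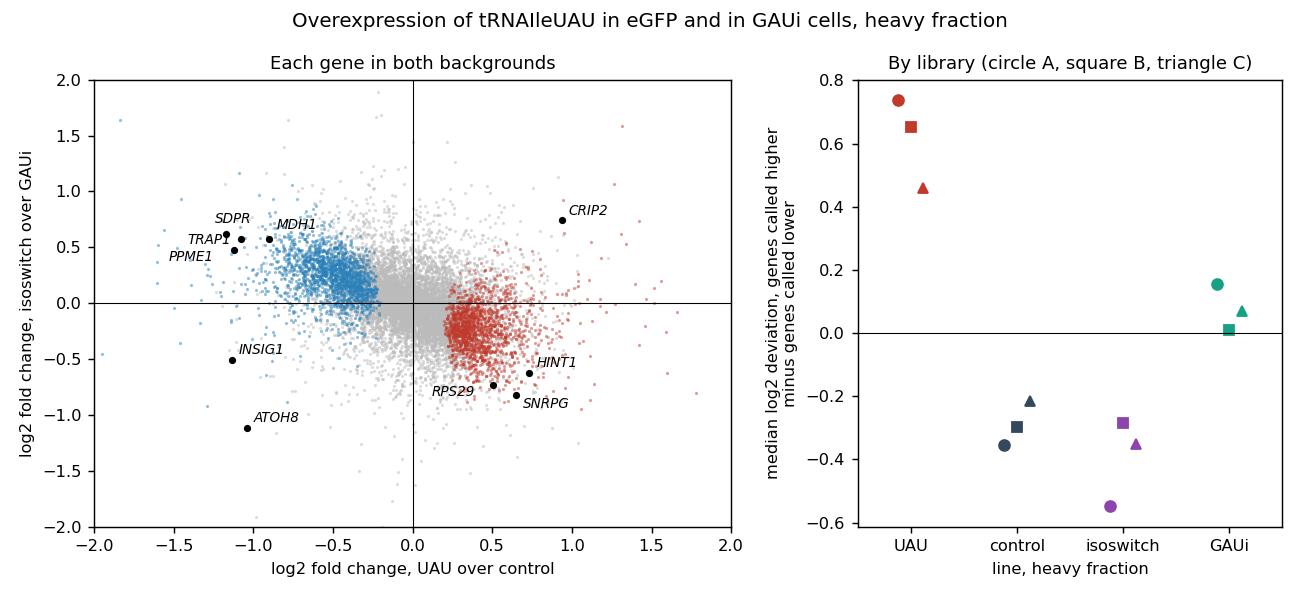
Left, log2 fold change of isoswitch over GAUi (vertical axis) against UAU over control (horizontal axis) in the heavy fraction, 1 point per gene, red and blue for genes called higher and lower in UAU; 1 gene lies outside the axes. Right, for each of the 12 heavy-fraction libraries, the median log2 deviation from the mean of all 12 over genes called higher minus that over genes called lower: the UAU libraries at 0.46 to 0.74 and control libraries at -0.35 to -0.22 chose the genes, isoswitch libraries lie at -0.55 to -0.29 and GAUi libraries at 0.01 to 0.16.

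How the change relates to the usual place of an mRNA in the gradient was described with GAUi cells, whose libraries take no part in the contrast. Genes were put in 5 equal groups by their level in the low fraction over the heavy fraction of GAUi cells. In the group that lay most in the low fraction, 16.4% of 2341 genes were higher and 5.51% lower in UAU heavy polysomes, with a median log2 fold change of 0.12. In the group that lay most in the heavy fraction 13.3% were higher and 20.9% lower, with a median of -0.04. In the groups between, from heavy to light, 13.8%, 10.9% and 12.2% were higher and 19.8%, 19.1% and 13.9% lower. Their medians were -0.04, -0.04 and -0.02. The difference of medians between the lightest and the heaviest group, light minus heavy, was 0.24, 0.13 and -0.11 in UAU libraries A, B and C, against -0.07, -0.11 and -0.07 in control libraries, as log2 deviations from the mean of the 6. UAU A and B were above all control libraries and UAU C was not, and the difference of 0.17 did not pass an exact two-sided permutation test (p = 0.3, the smallest possible being 0.1). In total RNA the same score differed by 0.04 and in the low fraction by 0.11, with no overlap between the lines and p = 0.1 in each exact permutation test.

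**Figure D5:**
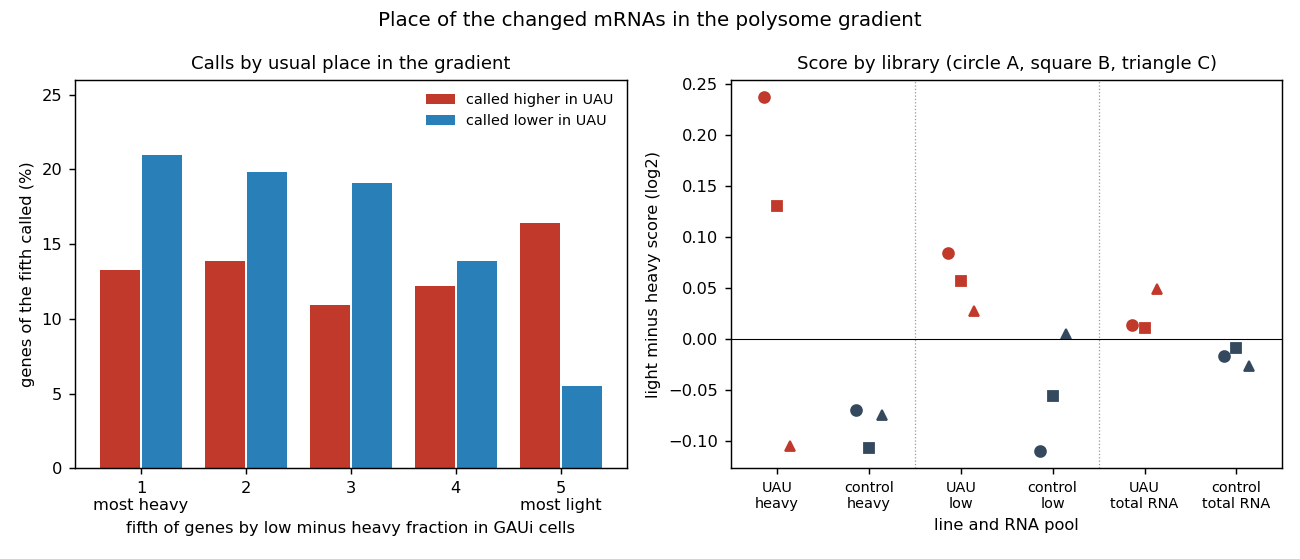
Left, percentage of genes called higher (red) and lower (blue) in UAU heavy polysomes in 5 groups of genes ordered from most heavy to most light in GAUi cells; the lightest group has 16.4% higher and 5.51% lower. Right, the light minus heavy score of each library (log2 deviation) in the heavy fraction, low fraction and total RNA, UAU libraries left of control; UAU A and B are at 0.24 and 0.13 and UAU C at -0.11 in the heavy fraction.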

How the data were processed

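QuantSeq 3' RNA-seq libraries were made from 500 ng RNA of total lysate or pooled gradient fractions, per the labels' protocols. The deposited files hold raw counts per gene symbol (26485 symbols) made by the authors; STAR, featureCounts, DESeq2 and the build hg38 are named, without versions, per the submitters' processing notes. The annotation, strand setting and treatment of multiply mapped reads were not given in the sources used here, so counts of overlapping, antisense and near-identical genes are uncertain.

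Counts were fitted with the edgeR 4.0.16 quasi-likelihood test (R 4.3.3, limma 3.58.1) with filterByExpr and TMM factors, on all 12 heavy-fraction libraries with contrasts of UAU minus control, isoswitch minus GAUi and their difference. Total RNA and the low fraction were fitted in the same way, on 12 libraries each, and the ratio in 1 model of heavy and total libraries. Genes were called at a Benjamini-Hochberg adjusted p under 0.05 over all genes tested. Log2 CPM of single libraries, used for the scores by library and the correlations of deviations, took a prior count of 2. CPM used TMM factors over all 36 libraries, and SE is the log2 fold change over the square root of F. In the 6 libraries compared, totals of 5192464 to 8974001 counts make 3 counts, the limit that a count of 0 allows, well under 1 CPM, which covers counting error only. The scripts were tested on simulated data. Promoters came from RefSeq, GRCh38.p14; 11851 of 11979 tested symbols matched its gene table.

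The genes and lists were chosen with earlier results of these data known. Genes named by rule (205) were the 12 highest and 12 lowest called log2 fold changes with a log2 CPM averaging 3 or more and groups that did not overlap, up to 4 called members by smallest p of each of 47 lists, the 6 highest and 6 lowest called ratios, the 5 smallest p of the difference between backgrounds, and INSIG1, HMGCS1, IARS, S100A4, CCNB1, GAPDH and PTGES. Other list members were named after their values were seen. The alternatives were RLE size factors, library totals, DESeq2 1.42.0, no low-count filter, a replicate block, only the compared libraries, and leaving out in turn each library of the lines compared. A planned score by protein length, and codon shares, were not run, since coding sequences were not used here; the score by place in the gradient was added after seeing the data. Some genes are not reported here.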

Additional observations from a re-analysis of the deposited data

Results flagged for a closer look

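The change from control to overexpression lines differed between the backgrounds for 4276 of 11979 tested genes (35.7%). Among genes called in UAU heavy polysomes that change differed for 1320 of 1570 higher and 1633 of 1862 lower. The tRNA was not measured, and the labels do not say whether a line is a clone or a pool. A difference between lines therefore cannot be told apart from a response to the tRNA. Of 35 genes named for the size of their UAU change, for the difference itself or by name, the difference was called for 30. These are given here. Their share is close to that among all genes called in UAU cells, so it does not set them apart. Each value below is the log2 fold change of isoswitch over GAUi minus that of UAU over control, from the edgeR quasi-likelihood test of that difference. It was not called for ATOH8 (-0.07), CRIP2 (-0.19), IARS (0.36), IL15RA (-0.82) and PTGES (0.04). Of the 35, 24 were chosen as the highest and lowest UAU log2 fold changes, which the difference subtracts, so its size and opposite sign in them are in part set by that choice. The 5 smallest p-values of the difference had chosen HINT1, RPS29, SNRPG, ANXA2P3 and MDH1, so their values describe that choice.

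Among genes higher in UAU heavy polysomes the difference was -1.47 for SNRPG, -1.42 for LRFN4, -1.41 for each of ADAT2, NDUFB2-AS1 and PPP2R2C, -1.35 for HINT1, -1.24 for RPS29, -1.17 for SELM, -1.11 for N6AMT2, -1.06 for G0S2, -1.03 for CYSTM1, -1.02 for FAM131A, -0.92 for S100A4 and -0.90 for TEF.

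Among genes lower in UAU heavy polysomes it was 1.79 for SDPR, 1.67 for ANXA2P3, 1.66 for TRAP1, 1.60 for PPME1, 1.48 for MDH1, 1.40 for SWAP70, 1.32 for GAPDH, 1.31 for SNX2, 1.304 for GALM, 1.13 for IDI1, 1.10 for CCNB1, 1.09 for CSF1, 0.99 for TGFB2-AS1, 0.69 for NFIL3, 0.68 for HMGCS1 and 0.63 for INSIG1.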

How the results depend on the processing

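In heavy polysomes more genes were lower than higher in every setting run: 1082 to 1712 genes were higher and 1284 to 2097 lower when 1 library was left out, and with the replicate block 1547 were higher and 1848 lower. Library totals gave 1031 higher genes. At 2-fold or more, DESeq2, which gave an adjusted p for 10353 of 11979 genes, called 36 genes, and leaving out 1 library gave 79 to 162. Of 205 named genes 0 reversed in any setting run, at most 10 lost their call when a library was left out and at most 3 in any other setting. Most of them were chosen by their values in the main fit of these libraries, so their stability is in part set by that choice. Calls in total RNA (113) were 187 with DESeq2, 236 with no low-count filter, 916 with only the compared libraries and 25 to 43 with 1 library left out. Calls in the low fraction (86) were 183 with DESeq2, 339 with no low-count filter, 22 with the replicate block, 0 with only the compared libraries (1163 at an unadjusted p under 0.05) and 6 to 209 with 1 library left out. Calls in the ratio (918) were 1447 with only the compared libraries and 457 to 1329 with 1 library left out. Those in isoswitch against GAUi (1897) were 772 to 1839 and those of the difference (4276) 3580 to 4695 with 1 library left out. The cause of these shifts was not tested. The light minus heavy score of 0.17 was 0.09 to 0.27 with 1 library left out, 0.11 with 3 groups of genes in place of 5, 0.18 with no filter and 0.17 with library totals, all added after seeing the data.

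By the rule used, a minimum correlation of 0.1, the replicate letters did not pair the libraries in heavy polysomes or total RNA. In the low fraction letter A passed that minimum, and B and C did not. Deviations of same-letter UAU and control libraries correlated at 0.06, 0.06 and 0.04 in heavy polysomes, where each library correlated best with its own letter, at -0.00, -0.04 and 0.03 in total RNA and at 0.20, 0.05 and -0.09 in the low fraction. Depth limits genes of low level, and groups of 3 cannot give an exact permutation p under 0.1. The score by protein length was not run.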
